A study of Homo sapiens with 54 samples.

Results

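The 10 genes described here mark or govern the passage between epithelial and mesenchymal cells and were followed through 27 cultures of human pluripotent stem cells: the epithelial genes CDH1 and EPCAM, the cadherins CDH2, CDH6 and CDH11, the filament gene VIM, and the transcription factor genes SNAI1, SNAI2, ZEB1 and ZEB2. They were found by the RefSeq accession of their probes, and the 10 genes have 13 probes among the 42405 on the array, on which 19720 genes could be named. The list was chosen by gene name with earlier results known, and CDH6 was selected on its measured rise in cultures with no FGF against cultures with FGFC, where the difference of its means, 8.48 on the log2 scale, was the third of all 42405 probes. DLX5 (9.31) and DLK1 (9.23) stood above it in that order, and DLX6 (8.18) just below. These differences served the choice and were not tested.

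H1 is a human embryonic stem cell (ESC) line. E8 Medium was made here from Essential 6 Medium by adding 2 ng/mL of TGF-beta 1 and 100 ng/mL of bFGF, and carried the cells on Matrigel with no feeder layer. FGFC is a chimeric protein made of parts of FGF1 and FGF2, and the study asked whether it can take the place of bFGF. In 3 experiments H1 was pre-cultured in E8 Medium with bFGF and then split for 4 days into arms with bFGF, FGFC (both at 100 ng/mL) or no FGF, and TGF-beta 1 was in the medium of all of these cultures. Long-term cultures with bFGF or FGFC, each beside 1 bFGF pre-culture, were H1 in E8 Medium for 30 days (100 ng/mL), H1 in medium conditioned by mitomycin C-treated mouse embryonic fibroblasts (MEF-CM) for 41 days (5 ng/mL), the ESC line KhES-1 on MEF feeder cells for 30 days (5 ng/mL), and the induced pluripotent stem cell lines 201B7 on MEF feeder cells for 50 days (10 ng/mL) and 253G1 in E8 Medium for 36 days (100 ng/mL). A single H1 culture had been differentiated without FGF as embryoid bodies, which were attached to gelatin at day 8 and kept for another 11 days. Each long-term arm and the differentiated arm is 1 culture, and each culture was read on 2 arrays that count as 1 sample. Nothing in the labels says more of how the cultures of a line were kept apart, and the p-values measure the spread between them.

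Cadherins are cell adhesion proteins that bind like partners on neighbouring cells and are anchored to actin through catenins. In an epithelial to mesenchymal transition (EMT), as in gastrulation and neural crest emigration, E-cadherin (CDH1) commonly gives way to N-cadherin (CDH2) and other cadherins. Vimentin filaments (VIM) become abundant. The SNAI and ZEB proteins are zinc finger repressors that bind E-box sequences, among them those of the CDH1 promoter. Human pluripotent stem cells grow as epithelial colonies with CDH1 and EPCAM at their surface.

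RefSeq promoter windows of GRCh38.p14 could be read for 4 of the 10 genes, CDH2, VIM, ZEB1 and ZEB2. The 250 bases before the most upstream start listed for the gene are shown for each because these genes had higher means without FGF, and the SNAI and ZEB E-box, CAGGTG or on the other strand CACCTG, is in capitals.
CDH2 (chr18:28177131-28177380, minus strand): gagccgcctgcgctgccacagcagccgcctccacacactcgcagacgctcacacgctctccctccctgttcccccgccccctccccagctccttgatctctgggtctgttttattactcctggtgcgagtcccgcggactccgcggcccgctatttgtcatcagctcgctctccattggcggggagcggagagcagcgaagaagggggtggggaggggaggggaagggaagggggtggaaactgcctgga
VIM (chr10:17227991-17228240, plus strand): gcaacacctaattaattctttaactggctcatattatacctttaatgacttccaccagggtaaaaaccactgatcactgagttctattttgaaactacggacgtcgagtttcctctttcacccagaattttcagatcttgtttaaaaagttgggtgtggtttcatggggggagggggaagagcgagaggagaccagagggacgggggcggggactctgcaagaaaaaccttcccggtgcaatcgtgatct
ZEB1 (chr10:31318167-31318416, plus strand): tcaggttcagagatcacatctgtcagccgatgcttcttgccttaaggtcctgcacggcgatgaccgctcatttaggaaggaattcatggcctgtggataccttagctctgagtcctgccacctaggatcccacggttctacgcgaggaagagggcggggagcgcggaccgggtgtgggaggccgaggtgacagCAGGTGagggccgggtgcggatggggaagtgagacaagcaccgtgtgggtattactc
ZEB2 (chr2:144520120-144520369, minus strand): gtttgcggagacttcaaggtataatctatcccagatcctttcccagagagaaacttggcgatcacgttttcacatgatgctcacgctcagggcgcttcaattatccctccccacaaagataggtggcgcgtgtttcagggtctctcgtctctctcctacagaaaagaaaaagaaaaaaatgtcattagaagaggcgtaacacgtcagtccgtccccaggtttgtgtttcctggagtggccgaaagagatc
The ZEB1 window holds 1 such sequence, which begins 57 bases before the start, and the other 3 windows shown hold 0. CDH2 has 2 windows in the table and ZEB1 has 7, of which another (chr10:31318966-31319215) holds 2 such sequences, and the remaining windows of both genes hold 0. Of all 35116 promoter windows of this length 17.5% hold one.

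Values are log2 signals relative to the 75th percentile of the probes of the same array, so that 0 is the level of a bright probe, and they can be compared between cultures for 1 gene but not between genes. A probe is called well above background where Agilent's software marked at least 0.5 of its spots so. CDH1, CDH2, CDH11, EPCAM, VIM and SNAI1 were well above background on all 54 arrays, and ZEB1 on 46, CDH6 on 35, SNAI2 on 22 and ZEB2 on 14. Duplicate arrays of a culture differed by a median of 0.06 for CDH1, CDH2 and EPCAM, 0.24 for CDH6 and 0.46 for ZEB2. The dim genes are therefore measured less precisely, and the number of cultures limits the precision of every comparison.

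**Figure D1:**
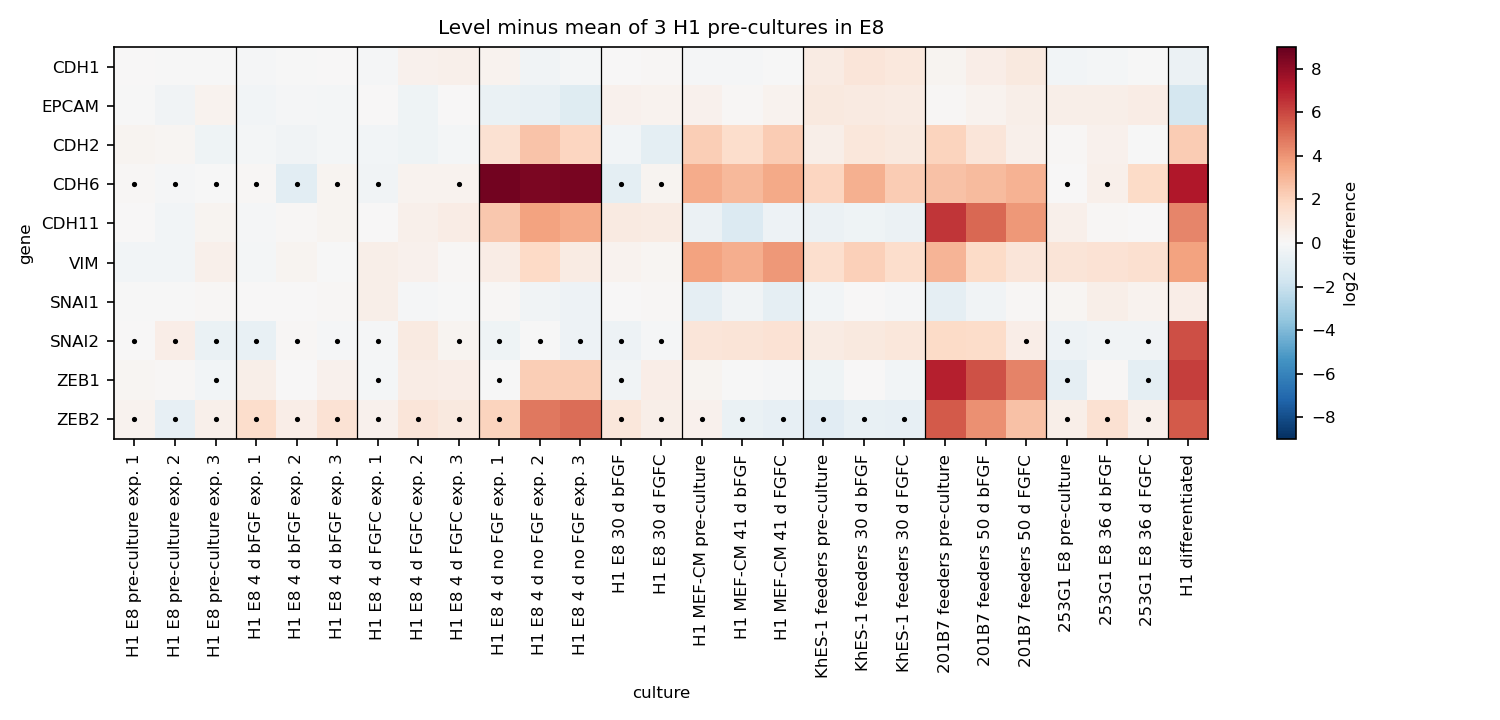
Heat map of the 10 genes (rows) in 27 cultures (columns), coloured by the log2 level minus the mean of the 3 H1 pre-cultures in E8 Medium, red for higher and blue for lower, with a dot where the probe was not well above background on both arrays. The cultures without FGF, the 201B7 cultures and the differentiated culture have the deepest red cells, and CDH6 without FGF is 8.50 to 8.67 above the pre-cultures.

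After 4 days without FGF, CDH2, CDH11 and ZEB2 had risen over the cultures with bFGF, and CDH1 had not moved beyond its spread. CDH6 went from background to a bright signal in each of the 3 experiments. In limma's fit over all probes, 3 of the 9 genes tested passed an adjusted p of 0.05, all 3 of them higher, beside 12.7% of all 42405 probes (5.54% higher and 7.19% lower). At an unadjusted p under 0.05 there were 6 of 9. The cultures without FGF also took part in choosing CDH6, so CDH6 is described without a test, and the tests of the other genes share those cultures with the choice. The median difference of the 10 genes, CDH6 included, was 1.09 on the log2 scale, against 0.01 over all probes. Because of that choice, and of a list made with earlier results known, nothing is read from this median. RNA was measured from whole cultures, in which fewer cells of a type and less RNA per cell cannot be told apart.

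**Figure D2:**
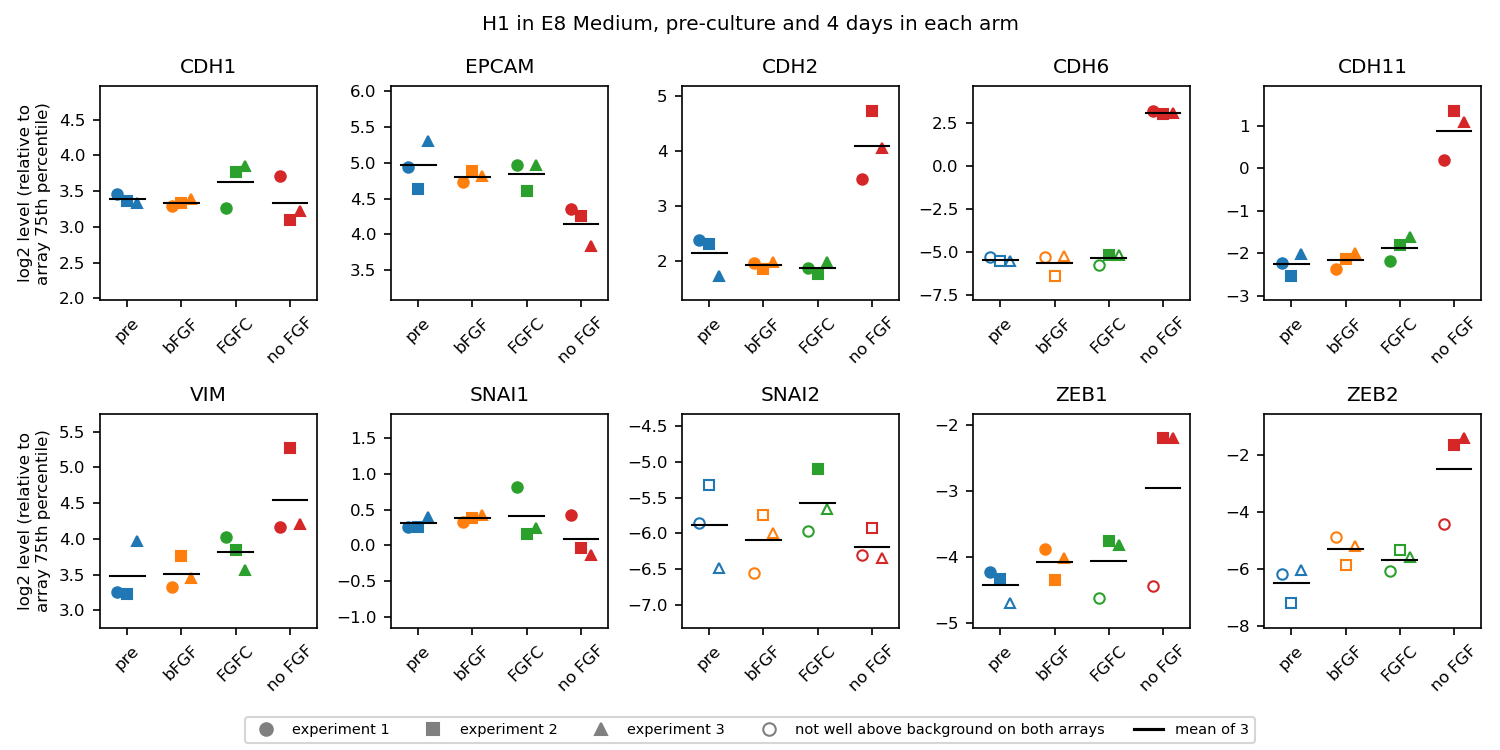
Log2 level relative to the array's 75th percentile of each gene in the H1 pre-cultures and in the 4-day arms with bFGF, FGFC or no FGF, with 1 point per culture, a symbol per experiment, open points where the probe was not well above background on both arrays, and a line at the mean of 3. CDH2, CDH6 and CDH11 without FGF lie above every other culture, CDH1 overlaps, and ZEB1 and ZEB2 are lower in experiment 1 than in experiments 2 and 3. The panels have different vertical scales.

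CDH1, on chromosome 16 (chr16:68737292-68835537), encodes E-cadherin, the adhesion protein of epithelial adherens junctions. Its level was 3.71, 3.09 and 3.22 without FGF in experiments 1, 2 and 3, against 3.29, 3.33 and 3.39 with bFGF and 3.26, 3.77 and 3.85 with FGFC. The arms overlapped, and the first experiment was higher without FGF while the other two were lower. The difference from bFGF was 0.00 ± 0.20 (SE, n = 3 and 3), with a 95% interval of -0.45 to 0.45 and limma's adjusted p = 0.991. A fall of CDH1 by more than 0.45 on the log2 scale lies outside this interval.

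EPCAM, an adhesion protein of epithelial and pluripotent cells, measured 4.35, 4.26 and 3.84 without FGF. With bFGF it was 4.73, 4.88 and 4.81, and with FGFC 4.97, 4.60 and 4.97. Every culture without FGF was below every culture with either factor. The difference from bFGF of -0.65 (95% interval -1.12 to -0.19) missed the threshold, with limma's adjusted p = 0.0707, and it passed under normexp background correction, quantile normalization, a fit of the 2 arms alone or a fit of the probes well above background (adjusted p of 0.0169 to 0.0446).

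CDH2, on chromosome 18 (chr18:27932879-28177130), encodes N-cadherin of neural and mesenchymal cells. It measured 3.49, 4.74 and 4.06 without FGF, 1.96, 1.85 and 1.98 with bFGF, and 1.87, 1.76 and 1.98 with FGFC. The cultures with a factor lay within a narrow band, and those without FGF stood apart from it in all 3 experiments. The difference from bFGF was 2.17 ± 0.28 (SE), a 4.49-fold rise with limma's adjusted p = 0.000517, and a second probe gave 2.11 with an adjusted p of 0.000933.

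CDH11, on chromosome 16 (chr16:64943753-65123744), encodes a cadherin of mesenchymal cells and was first known from osteoblasts. It measured 0.20, 1.36 and 1.09 without FGF, -2.36, -2.13 and -1.99 with bFGF, and -2.19, -1.81 and -1.62 with FGFC. Each culture without FGF was above all others of the 4-day experiments and their pre-cultures, in which CDH11 was -2.53 to -2.02. It rose by 3.04 ± 0.29 over bFGF, an 8.24-fold change with limma's adjusted p of 5.4e-05. CDH2 and CDH11 passed in all alternatives tried for this comparison, with differences of 1.81 to 2.49 for CDH2 and 2.54 to 3.28 for CDH11.

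CDH6, on chromosome 5 (chr5:31193686-31329146), encodes K-cadherin, known from the developing kidney, neural folds and neural crest. Without FGF it measured 3.23, 3.06 and 3.08, well above background on all 6 arrays. With bFGF it measured -5.31, -6.37 and -5.22 and was well above background on 1 of 6 arrays, and with FGFC -5.76, -5.16 and -5.15 on 3 of 6. The 3 cultures without FGF lay within a range narrower than that of either arm with a factor. The means differed by 8.75 from bFGF and by 8.48 from FGFC, sizes that rest on arms at or near background. They were 8.03 and 7.59 with signals raised to the lowest one well above background, and 6.05 and 5.93 under normexp background correction.

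VIM encodes vimentin, the intermediate filament of mesenchymal cells and of many cultured cells. It measured 4.17, 5.27 and 4.21 without FGF, 3.33, 3.76 and 3.45 with bFGF, and 4.03, 3.84 and 3.56 with FGFC. All 3 cultures without FGF were above all those with a factor, and the highest with FGFC (4.03) was close to the lowest without FGF (4.17). The difference from bFGF of 1.04 (95% interval 0.35 to 1.72) had limma's adjusted p = 0.0513, and it was 0.0109 to 0.0455 under normexp correction, quantile normalization, a floor or without dim probes.

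Of the 4 regulator genes ZEB2 passed, and SNAI1, SNAI2 and ZEB1 did not. SNAI1, a repressor of CDH1 in gastrulation, measured 0.43, -0.04 and -0.13 without FGF and 0.32, 0.38 and 0.43 with bFGF, a difference of -0.29 (95% interval -0.74 to 0.17, limma's adjusted p = 0.425). SNAI2, its neural crest relative, was not well above background on any array of either arm, so that it has no fold here. With FGFC it was well above background on 2 of 6 arrays, both of experiment 2.

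ZEB2 measured -4.44, -1.68 and -1.44 without FGF, where it was well above background on 5 of 6 arrays, against -4.88, -5.84 and -5.19 with bFGF, where it was so on 0 of 6. Experiments 2 and 3 stood far above the bFGF cultures and experiment 1 only slightly, with differences of 0.44, 4.16 and 3.75. The fitted difference was 2.78 ± 0.67 with limma's adjusted p = 0.0185. Taken against the lowest signal well above background, the rise was at least 5.23-fold, and at least 3.09-fold on a second probe (adjusted p = 0.0236). The call of ZEB2 was lost without experiment 2 (difference 2.10, adjusted p = 0.204) or experiment 3 (2.30, adjusted p = 0.284), with the slide as a block (2.23, adjusted p = 0.113) and with a fit of the 2 arms alone (adjusted p = 0.0516), and the difference was 1.29 with a call under normexp correction.

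ZEB1 measured -4.44, -2.21 and -2.21 without FGF and -3.89, -4.35 and -4.02 with bFGF, so that it was higher in experiments 2 and 3 and lower in experiment 1. Its difference of 1.14 (95% interval 0.02 to 2.25) missed the threshold (limma's adjusted p = 0.191). Without experiment 1 it was 1.98 with an adjusted p of 0.00331. A second ZEB1 probe gave 1.53 with an adjusted p of 0.0361, though it was well above background on 1 of 6 arrays without FGF and 0 of 6 with bFGF.

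Markers of other cells moved with these genes in the same cultures. The summed level of 5 neuroectoderm markers was 1.26, 5.06 and 4.72 without FGF in experiments 1, 2 and 3 and -0.63 to -0.31 with bFGF, so that the first experiment was the lowest, as it was for ZEB1 and ZEB2. The brightest of the 5 was LHX2 without FGF (0.99, 4.94 and 4.59) and DCX with bFGF (-0.47, -0.86 and -0.70), so the sum does not show a joint rise. DCX was lower without FGF in all 3 experiments (-2.86, -0.98 and -1.36) and did not pass. Of the 5 markers 3 were called higher and 0 lower. PAX6, an early neural regulator, rose at least 27.6-fold, LHX2 by 7.52 and ZIC1 at least 4.03-fold, while SOX1 was not well above background on any array of either arm. Another PAX6 probe, well above background on 1 of 12 arrays, did not pass (0.20). Of 6 neural crest markers 4 rose, TFAP2A (at least 5.22-fold), PAX3 (at least 2.27-fold), SOX9 (1.87) and NGFR (0.95), FOXD3 fell by 3.31, and SOX10 did not pass. Without FGF, TFAP2A was highest in experiment 1 (-0.91, -4.10 and -2.65) and PAX3 lowest there (-5.20, -2.46 and -3.61). Of 7 amnion and trophoblast markers 3 rose, with GATA3 at least 11.1-fold and VTCN1 at least 3.15-fold higher and ISL1 (1.36) well above background on only 1 of 6 arrays. GATA3 without FGF was highest in experiment 1 (-0.43, -2.48 and -1.47), and VTCN1 differed little between experiments (-3.39, -3.10 and -3.36). The summed level of 7 pluripotency markers was 8.07 to 8.54 without FGF against 8.56 to 8.87 with bFGF. POU5F1 was the brightest of them in both arms, so the sum does not show a joint fall. Of the 7, 1 was called higher and 2 lower, with a median difference of 0.01. NANOG fell by 1.71 and POU5F1 by 1.08 while SOX2, which neural progenitors also express, rose by 1.32 in the same direction in all 3 experiments. LIN28A, ZFP42, DNMT3B and DPPA4 did not pass. The summed level of 12 fibroblast markers was 4.38 to 4.77 against 5.62 to 5.84. Of these 12, THY1, which was bright in all of the pluripotent cultures, fell (3.43, 3.86 and 3.81 against 5.43, 5.27 and 5.51, limma's adjusted p = 0.000209), PDGFRB fell by 1.01, PDGFRA rose by 2.86 (-2.83 to -1.44 against -4.85 to -4.69), and 9 did not pass. Of 3 endothelial markers 1 passed, KDR, which fell by 4.17 and was well above background in all of the pluripotent cultures. Of 4 smooth muscle markers 1 passed, ACTA2, which rose by 2.74. The mesendoderm marker GSC fell from 4 of 6 arrays well above background to 0 of 6, and TBXT was called higher at 0.83 with 0 arrays well above background in either arm. What part these cells had in the levels of the 10 genes was not tested.

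The wider junction and EMT genes moved in both directions without FGF. Of 15 other cadherin genes 4 rose and 1 fell against bFGF, with a median difference of 0.79 beside 0.01 for all probes. CDH9, a cadherin of the nervous system, rose by 3.33 ± 0.52 and CDH18 by 3.27 ± 0.37 (limma's adjusted p of 0.00151 and 0.000175). CDH24 rose by 1.10 and CDH13 at least 1.59-fold. CDH3, which encodes the P-cadherin of epithelia, fell by 1.18. CDH9 and CDH18 were highest in experiment 1 without FGF, at -0.13 and -0.34, where ZEB1 and ZEB2 were lowest.

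Of 23 genes of epithelial junctions 2 rose and 2 fell, with a median of 0.03, and the catenin genes CTNNA1 (0.17), CTNNB1 (0.47) and CTNND1 (-0.01) did not pass. DSC2, a desmosomal cadherin, rose by 0.94 and the tight junction gene OCLN by 0.58 on 1 probe (0.42 on the other, adjusted p = 0.195), and the claudin genes CLDN7 and CLDN3 fell by 0.86 and 0.64. Of 20 genes of the epithelial program 2 rose and 2 fell, with a median of -0.14. GRHL3, a regulator of surface ectoderm, rose by 5.02 ± 0.28, and ERBB3 fell by 0.92 and the keratin gene KRT18 by 0.74. A dim second probe of GRHL3 (-0.92) and the other 2 probes of ERBB3 (-0.25 and -1.01) did not pass.

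Of 19 genes of the mesenchymal program 5 rose and 3 fell, with a median of 0.18. TNC, a matrix protein of migrating tissues, rose by 2.03, the regulator FOXC1 by 1.99, TGFBI by 1.13 and MMP2 by 0.83, and the regulator PRRX1 rose at least 1.55-fold on signals that were well above background on 3 of 6 arrays. SPARC fell by 1.31, SNAI3, the third SNAI gene, by 1.27 and MMP14 by 0.95. FN1 (-1.12) and TWIST1 (0.34) did not pass. Of 10 genes of the TGF-beta pathway 4 rose and 1 fell, with a median of 0.52: the co-receptor gene TGFBR3 rose by 1.63, the inhibitor SMAD7 by 1.13 and the receptor gene TGFBR1 by 0.69, and TGFBR2 fell by 0.81. TGFB2 passed at 0.97 but was not well above background on any array of either arm.

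Against FGFC, the same cultures without FGF gave 5 of the 10 genes means 2-fold or more higher and 0 lower, beside 9.48% of all probes changed that much in either direction. This is the contrast that chose CDH6, and nothing is read from the count. The differences were 3.15 for ZEB2, 2.76 for CDH11, 2.22 for CDH2, 1.12 for ZEB1 and 0.74 for VIM, and -0.28 for CDH1 and -0.69 for EPCAM. The comparisons with bFGF and with FGFC share the cultures without FGF.

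**Figure D3:**
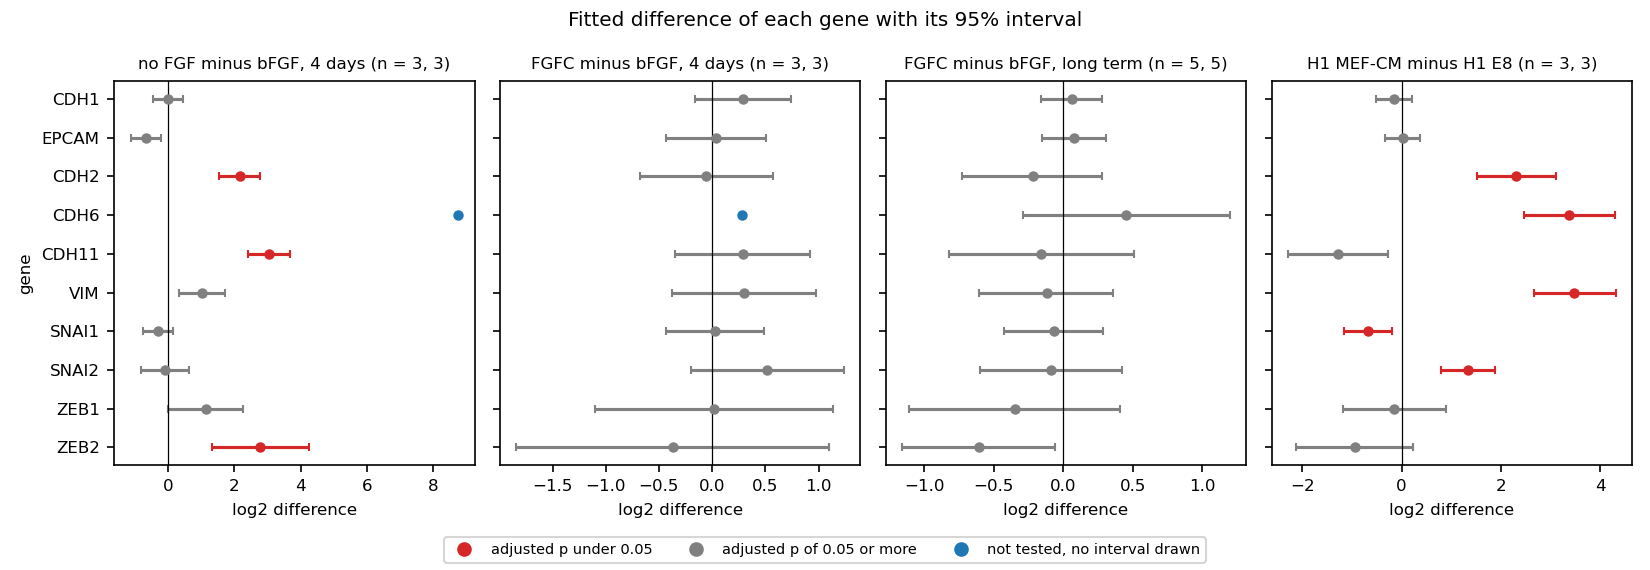
Difference of each gene on the log2 scale, with its 95% interval, in 4 comparisons: no FGF minus bFGF and FGFC minus bFGF over 4 days, FGFC minus bFGF over the long term, and H1 in MEF-CM minus H1 in E8 Medium, with red for an adjusted p under 0.05, grey for others and blue without an interval for CDH6 where it was not tested. CDH2 and CDH11 are red in the first panel, 0 genes are red in both panels of FGFC minus bFGF, and the horizontal scales differ between panels.

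With FGFC in place of bFGF for 4 days, 0 of 9 genes passed, beside 0% of all probes, in limma's fit (0 of the 9 and 1262 of 42405 probes at an unadjusted p under 0.05). The difference was 0.29 for CDH1 (95% interval -0.16 to 0.74), 0.04 for EPCAM (-0.43 to 0.51), -0.06 for CDH2 (-0.68 to 0.57), 0.29 for CDH11 (-0.35 to 0.92) and 0.30 for VIM (-0.38 to 0.98). These intervals leave room for changes of up to nearly 2-fold. CDH6 differed by 0.28, and it was at or near background in both arms. The intervals of the dim regulator genes were -1.84 to 1.10 for ZEB2, -1.10 to 1.14 for ZEB1 and -0.20 to 1.24 for SNAI2.

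Over the long term, 0 of 10 genes differed between FGFC and bFGF, beside 0% of all probes, in limma's fit with the system as a block (1 of the 10 and 2537 of 42405 probes at an unadjusted p under 0.05). CDH1 was 3.47, 3.36, 4.37, 4.25 and 3.34 with FGFC in H1 in E8 Medium, H1 in MEF-CM, KhES-1, 201B7 and 253G1, and 3.46, 3.31, 4.48, 4.00 and 3.23 with bFGF. It was higher with FGFC in 4 of 5 systems, by a mean of 0.06 (95% interval -0.16 to 0.28, adjusted p = 0.839). EPCAM differed by 0.08 (-0.15 to 0.31), CDH2 by -0.22 (-0.73 to 0.28) and VIM by -0.12 (-0.61 to 0.36).

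CDH2 was lower with FGFC in 4 of 5 systems and 0.71 higher in MEF-CM, where CDH11 was also 0.77 higher. In 201B7 the difference of CDH11 was -1.31. The gene with an unadjusted p under 0.05 was ZEB2, which was lower with FGFC in 5 of 5 systems, with a mean difference of -0.61 (unadjusted p = 0.0357, limma's adjusted p = 0.701). A second ZEB2 probe gave -0.64 and was lower in 4 of 5. The first probe was well above background on only 2 of 10 arrays of each arm, all of them in 201B7.

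In H1 kept in MEF-CM, VIM, CDH6 and CDH2 were higher than in H1 kept in E8 Medium, while CDH1 and EPCAM differed little. Of the 10 genes 4 were higher and 1 lower in limma's fit over 15 cultures, beside 28.6% of all probes called. The 3 cultures of a system are its pre-culture, for H1 in E8 Medium that of experiment 1, and both long-term arms. The test therefore measures their spread and not that between independent derivations. Medium, dose of FGF and slide differ together here and cannot be told apart. Of the calls over all probes 27.3% were higher, and 42.5% and 51.1% under normexp correction and quantile normalization, with a median difference over all probes of -0.15, -0.21 and -0.04.

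VIM was 7.08, 6.74 and 7.37 in MEF-CM (pre-culture, bFGF, FGFC) and 3.25, 3.81 and 3.68 in E8 Medium, an 11.2-fold difference (3.48 ± 0.38, adjusted p = 6.57e-05). CDH2 was 4.34, 3.69 and 4.41 against 2.39, 1.86 and 1.25, which is 4.96-fold (2.31 ± 0.37, adjusted p = 0.000684). For both genes every MEF-CM culture was above every E8 culture. CDH6 was -2.09, -2.53 and -2.05, well above background on all 6 arrays, against -5.31, -6.31 and -5.18 in E8 Medium, well above background on 1 of 6. Its difference was 3.38 ± 0.42 (10.4-fold, adjusted p = 0.000151) and 1.20 under normexp correction, with a call in both.

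CDH1 was 3.25, 3.31 and 3.36 in MEF-CM and 3.46, 3.46 and 3.47 in E8 Medium, a difference of -0.16 (95% interval -0.52 to 0.20, adjusted p = 0.527), and that of EPCAM was 0.02 (-0.33 to 0.37). CDH11, which was higher beside CDH2 and CDH6 without FGF, was -3.00 in MEF-CM against -1.72 in E8 Medium (means of 3), a difference of -1.28 that missed the threshold (adjusted p = 0.0561). SNAI1 was lower, with a difference of -0.68 (adjusted p = 0.0367), a call kept in 6 of 14 alternatives. SNAI2 was called higher at 1.34, which came to at least 1.05-fold against background, and was 0.11 under normexp correction and 0.08 with a floor (adjusted p of 0.745 and 0.828). ZEB1 differed by -0.15 on its main probe and was called lower on a second one (-1.18, adjusted p = 0.00315), which was not well above background on any of these arrays. The smooth muscle marker ACTA2 was 6.16 higher in MEF-CM, where 3 of 4 smooth muscle markers were called higher and 0 lower. The summed level of 12 fibroblast markers was 6.04 to 6.14 against 5.56 to 5.89. Of these 12, 4 were called higher and 3 lower, with a median difference of 0.01. The brightest of them in both media was THY1, at 5.27 to 5.53 and 5.36 to 5.58. DCN, LUM, COL3A1 and FAP were not well above background on any MEF-CM array. The part of such cells in the levels of VIM and the cadherins was not tested.

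**Figure D4:**
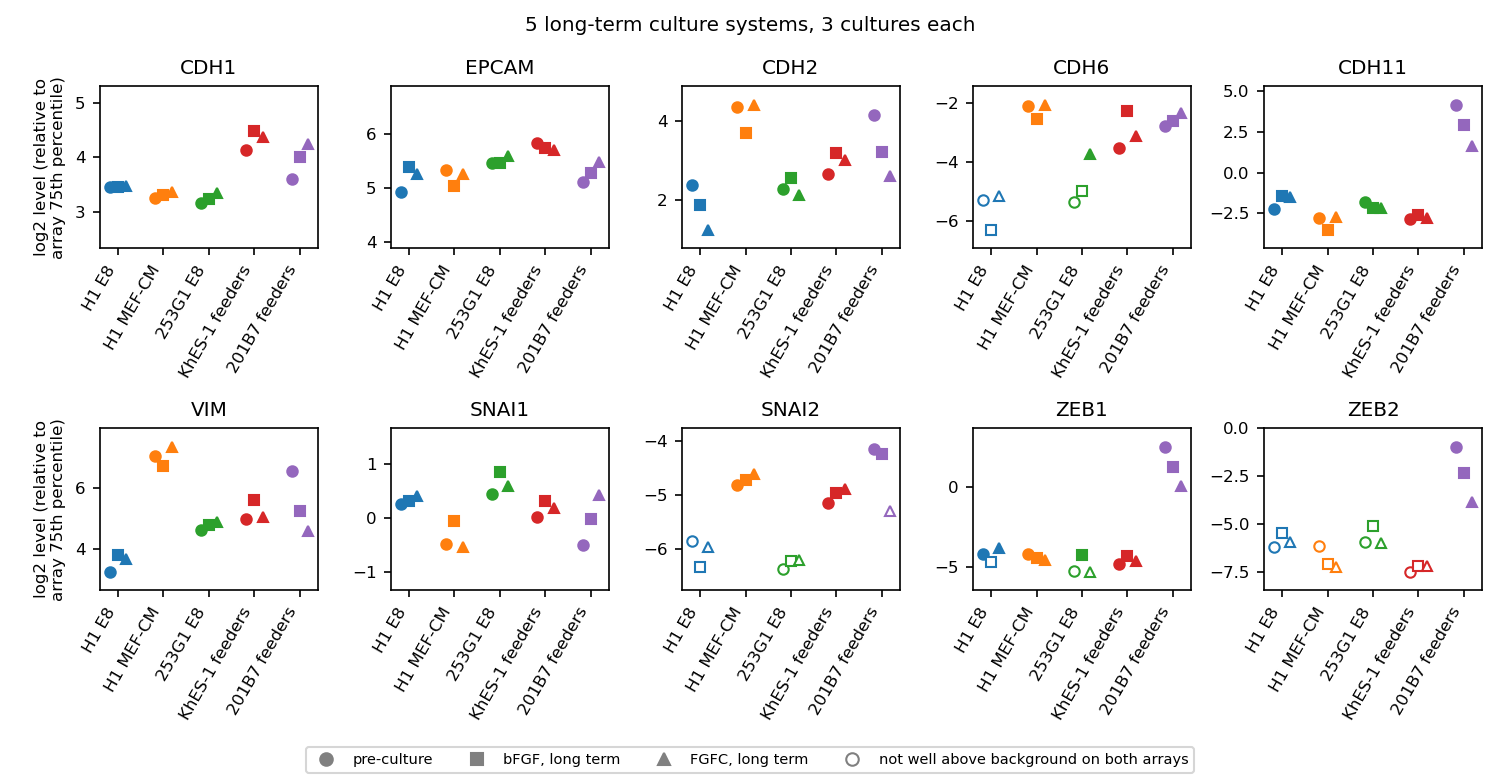
Log2 level relative to the array's 75th percentile of each gene in 5 long-term systems, with 1 point for each pre-culture, bFGF culture and FGFC culture and open points where the probe was not well above background on both arrays. The means of VIM and CDH2 are highest in MEF-CM, and those of CDH11, ZEB1 and ZEB2 in 201B7. The panels have different vertical scales.

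Between 253G1 and H1, both in E8 Medium, 0 of 10 genes were called, beside 13.3% of all probes (1 of the 10 at an unadjusted p under 0.05). Line and slide differ together and cannot be told apart, and the share of calls that were higher was 34.6%, and 47.8% under normexp correction and 47.1% under quantile normalization. VIM was 4.63, 4.78 and 4.89 in 253G1, above all 3 H1 cultures. Its difference of 1.19 (95% interval 0.36 to 2.01) had limma's adjusted p = 0.0573, and 0.0279 to 0.0472 under normexp correction, without dim probes or in a fit of the 2 systems alone. CDH1 was 3.16, 3.23 and 3.34, a difference of -0.22 (-0.59 to 0.14). CDH6 was -5.38, -4.98 and -3.74, with the FGFC culture the only one well above background on both arrays.

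On feeder cells, 201B7 carried far higher CDH11, ZEB1 and ZEB2 than KhES-1, without lower CDH1 beyond the threshold. Of 10 genes 3 were higher and 1 lower in limma's fit, beside 37.1% of all probes called. Line, medium, dose and slide differ together and cannot be told apart. Of the calls over all probes 71.4% were higher, and 64.5% and 47.5% under normexp correction and quantile normalization, and the median difference of all probes was 0.34, 0.41 and -0.05, so that the differences below stand on a shifted background of about 0.34.

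ZEB1 was 2.57, 1.29 and 0.06 in 201B7 (pre-culture, bFGF, FGFC) and -4.84, -4.36 and -4.66 in KhES-1, a difference of 5.93 ± 0.49 (60.9-fold, adjusted p = 8.16e-06). A second ZEB1 probe was not well above background on any of these 12 arrays, where its difference was 0.69 (adjusted p = 0.0446). CDH11 was 4.17, 2.93 and 1.62 against -2.83, -2.63 and -2.76, a difference of 5.64 ± 0.47 (49.9-fold, adjusted p = 8.93e-06). ZEB2 was -0.96, -2.33 and -3.85 against -7.46, -7.15 and -7.18, at least 10.5-fold higher (4.89 ± 0.55, adjusted p = 8.84e-05, and 1.68 under normexp correction with a call). In all 3 genes the pre-culture of 201B7 was the highest and the FGFC culture the lowest, and each was above every KhES-1 culture. The arrays of that pre-culture were the dimmest of the series, with 75th percentile signals of 182 and 234, on a slide of their own. The other 201B7 arrays had 504 to 632, and the part of this in the order was not tested.

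CDH1 in 201B7 was 3.61, 4.00 and 4.25 in the same order and 4.14, 4.48 and 4.37 in KhES-1, so that the ranges overlapped (difference -0.38, 95% interval -0.74 to -0.01, adjusted p = 0.0899). EPCAM was 5.11, 5.28 and 5.48 against 5.84, 5.75 and 5.70, a difference of -0.47 (adjusted p = 0.0375), a call kept in 5 of 14 alternatives. VIM was 6.57, 5.24 and 4.59 against 4.97, 5.61 and 5.04, CDH2 4.14, 3.21 and 2.61 against 2.65, 3.19 and 3.02, and CDH6 -2.79, -2.59 and -2.33 against -3.52, -2.27 and -3.13, and these 3 did not pass. VIM and CDH2 were highest in the pre-culture and lowest in the FGFC culture of 201B7, as ZEB1 was, and CDH1 and EPCAM ran the other way.

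Some fibroblast markers moved with these levels in 201B7, and markers of other cells differed as well. DCN, a proteoglycan of connective tissue, was 7.08, 6.28 and 4.85 in 201B7 and -2.09, -4.41 and -4.38 in KhES-1, and PDGFRA 2.77, 1.88 and 0.60 against -2.76, -3.03 and -3.31. Both were highest in the pre-culture and lowest in the FGFC culture, in the order of ZEB1 and CDH11. The summed level of 12 fibroblast markers was 8.04, 7.21 and 6.29 in 201B7 and 5.34 to 5.50 in KhES-1. The brightest of them was DCN in 201B7 and THY1 in KhES-1, so the sum does not show a joint difference. Of the 12, 5 were called higher. Of those 5, COL3A1 and LUM were not well above background on any 201B7 array, and FAP was not either. The summed level of 7 pluripotency markers, of which POU5F1 was the brightest in both lines, was 9.34 to 9.50 in 201B7 and 9.41 to 9.66 in KhES-1. Of 6 mesendoderm markers 1 was called higher and 0 lower, with a median difference of 1.42. Unlike ZEB1, SOX17 (-4.97, -0.84 and -0.85) and GSC (-4.03, -1.65 and -1.88) were lowest in the pre-culture of 201B7. So were EOMES, FOXA2 and MIXL1, while TBXT was lowest in the FGFC culture. Of 7 amnion and trophoblast markers 2 were called higher and 0 lower. Among them GATA3 was -2.18, -3.82 and -4.92 in 201B7, in the order of ZEB1, against -7.02, -5.36 and -6.44 in KhES-1. Of 4 smooth muscle markers 0 were called higher and 2 lower. The part of any of these cells in the levels of ZEB1, ZEB2 and CDH11 was not tested.

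**Figure D5:**
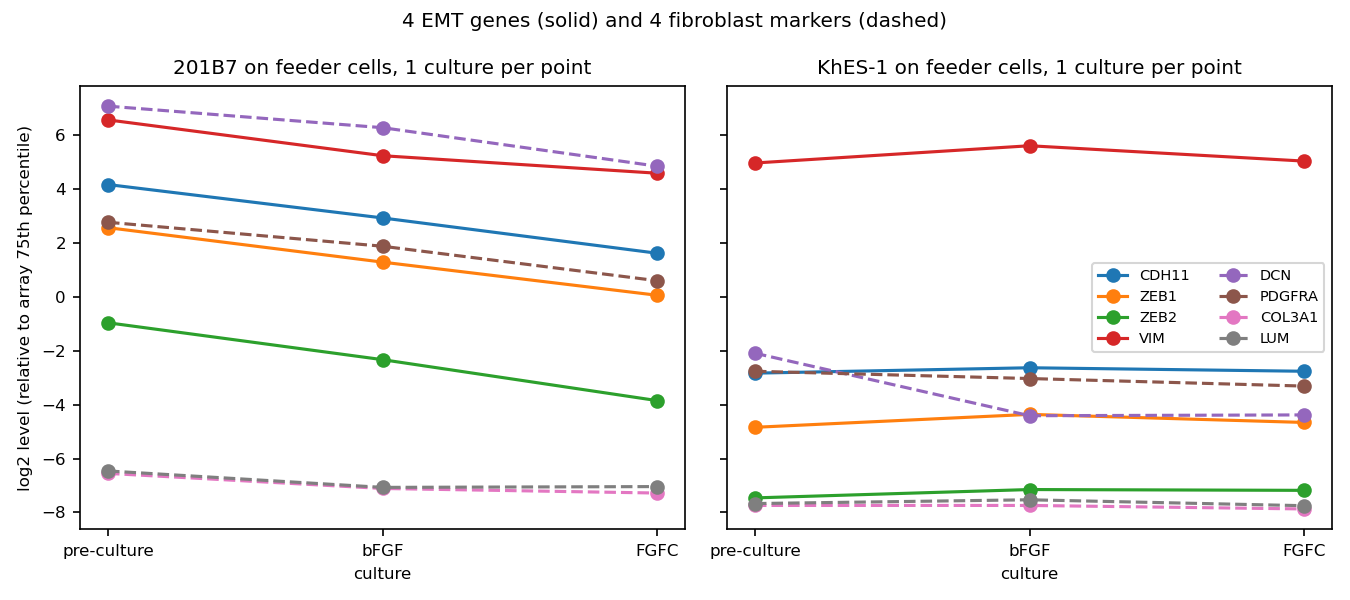
Log2 level relative to the array's 75th percentile of CDH11, ZEB1, ZEB2 and VIM (solid lines) and the fibroblast markers DCN, PDGFRA, COL3A1 and LUM (dashed lines) in the pre-culture, bFGF culture and FGFC culture of 201B7 (left) and KhES-1 (right), 1 culture per point, with lines drawn only to join a gene's cultures. In 201B7 the EMT genes, DCN and PDGFRA go down from left to right, and COL3A1 and LUM stay between -7.28 and -6.46, not well above background.

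The differentiated H1 culture, 1 culture without a replicate, had every one of the 10 genes well above background on both arrays. Against the mean of the 3 H1 pre-cultures in E8 Medium, 7 were 2-fold or more higher and 1 lower, beside 29.7% of all probes changed that much, and their median difference was 4.03 against -0.12 over all probes. ZEB1 was at 1.80 (6.23 above the pre-cultures), CDH11 at 2.16 (4.42), VIM at 7.12 (3.64) and CDH2 at 4.45 (2.31). CDH6 was at 1.75 and SNAI2 at -0.11, differences of 7.20 and 5.77 from pre-cultures that were well above background on 2 of 6 and 1 of 6 arrays, and of 6.77 and 4.88 with a floor at background. ZEB2 was at -0.97, at least 17.9-fold higher than the pre-cultures, where 0 of 6 arrays were well above background. SNAI1 was at 0.90, 0.59 above. SNAI2 had thus its highest level here, where in 15 of the 27 cultures it was well above background on neither array.

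EPCAM was at 3.39 in the differentiated culture, a difference of -1.57 from the pre-cultures, and CDH1 at 2.83, a difference of -0.56. Both were the lowest values of their gene in the 27 cultures. In this culture POU5F1, the pluripotency factor, differed by -5.30, and 12 of 12 fibroblast markers were well above background on both arrays. Of 15 other cadherins 9 were 2-fold or more higher and 0 lower, among them CDH10 at least 49.4-fold, and of 19 genes of the mesenchymal program 13 were higher and 1 lower. With 1 culture these are values and no test was made.

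Across all 27 cultures CDH1 ran from 2.83 to 4.48 and EPCAM from 3.39 to 5.84, while CDH6 ran from -6.37 to 3.23, ZEB1 from -5.32 to 2.57 and CDH11 from -3.50 to 4.17. In the 11 H1 cultures in E8 Medium with bFGF or FGFC, CDH1 stayed between 3.26 and 3.85 and CDH2 between 1.25 and 2.39. The highest level was that of KhES-1 with bFGF for CDH1, of H1 without FGF in experiment 2 for CDH2, of H1 without FGF in experiment 1 for CDH6, and of the 201B7 pre-culture for CDH11, ZEB1 and ZEB2. That pre-culture was read on the dimmest arrays of the series. Of the systems, CDH1 stood in the order KhES-1 (4.33 ± 0.17, SD, n = 3), 201B7 (3.95 ± 0.32), H1 in E8 Medium (3.46 ± 0.00), H1 in MEF-CM (3.31 ± 0.05) and 253G1 (3.24 ± 0.09), and the tests between H1 and 253G1, between H1 in its 2 media and between 201B7 and KhES-1 did not pass.

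The genes whose profile over 27 cultures, each less its own mean, came nearest to that of a cadherin were sought among 17348 named genes measured above background. They are a description, since the cultures share lines and arrays. For CDH6 (SD 2.85) they were FLRT3, FRZB and ID4, with root mean square differences of 1.00, 1.17 and 1.25. For CDH11 (SD 1.98) they were FZD1, MEIS1 and ADAMTS6, at 0.61, 0.71 and 0.73. For CDH2 (SD 1.00) they were CA2, NR4A3 and CHMP4C, at 0.52, 0.52 and 0.53, and for CDH1 (SD 0.40) SMC4, ATP11A and ATL2, at 0.21, 0.22 and 0.24.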

How the data were processed

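RNA of 27 cultures was read on 54 one-colour arrays, 2 per culture, and duplicates were averaged. The authors deposited spot intensities from Agilent Feature Extraction 10.7.3.1: a processed signal, which the software had corrected for background but not scaled from array to array, the median intensity of each spot and its surroundings, and a series table that repeats the processed signal. Other deposited columns are the software's yes or no marks.

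Of 62976 spots per array, 4259 controls and 266 to 623 outliers were dropped. Signals were raised to 1 at least, turned to log2, averaged per probe and lowered by the array's 75th percentile (a signal of 182 to 913), after the study's methods. Between 56% and 79.2% of probes were well above background and 0 saturated. RefSeq accessions named 25715 of 42405 probes, and the probe of highest mean over 54 arrays stands for a gene.

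Linear models were fitted with limma 3.58.1 (R 4.3.3; lmFit, eBayes), with two-sided p-values adjusted by Benjamini and Hochberg across the 42405 probes and called under 0.05. The 4-day fit used 12 H1 cultures, the long-term fit 10 with the system as a block, and the fit of systems 15. An "at least" fold sets the dim group, per array, at the higher of its own signal and the faintest one marked well above background. The steps were checked on simulated data in which 50 of 42405 probes were changed at each size. The adjustment depends on how many probes change, so these shares need not hold where many more were called. Changes of 1 on the log2 scale passed for 34% of probes without FGF against bFGF and 30% with FGFC against bFGF at 4 days. They passed for 44% in the long term and 18% between the H1 media. For changes of 2 the lowest share was 66% and the highest 86%. False calls were 8.4% of calls without FGF against bFGF and 4.2% to 5.8% in the others. Figures were drawn with matplotlib 3.10.9. All 10 members are named, and from the other lists up to 4 rises and 4 falls that passed without FGF against bFGF with 1 direction in 3 experiments. Genes given beyond that were picked after their values were seen. The members and lists were chosen with earlier results of these data known.

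Titles number the experiments, and this number was taken to pair the arms: deviations from group means correlated at -0.16 to 0.52 (median 0.18) over 18 pairs. In experiment 2 the pre-culture is labelled passage 49 and its arms passage 59. The 3 arms share a slide in experiments 1 and 3. Alternatives were normexp correction (offset 50), quantile normalization, a floor, 1 array per culture, dropping dim probes, blocks for experiment or slide, fewer groups and leaving out cultures. TJP3, TWIST2 and TDGF1 matched no probe and were not analysed here. The values of 1 gene of these lists are not reported here.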

Additional observations from a re-analysis of the deposited data

Results flagged for a closer look

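In 201B7 on feeder cells, SNAI2 was lower with FGFC than with bFGF by a log2 difference of -1.05, while the other 4 systems gave 0.03 to 0.37. Its gap to the nearest of the others was 0.758 of the whole range, above Dixon's critical value of 0.71 for 5 values. The 10 genes were each examined in this way, and chance alone marks about 1 in 20. The systems of H1 in E8 Medium (0.37) and 253G1 (0.03), which set both ends of that range, had SNAI2 well above background on 0 arrays, so the flag rests in part on background values. The bFGF culture of 201B7 was at -4.25 and the FGFC culture at -5.30, where the probe was well above background on 1 of 2 arrays. Between the same cultures the fibroblast markers DCN (6.28 and 4.85) and PDGFRA (1.88 and 0.60) were also lower with FGFC, and their part in the difference was not tested.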

How the results depend on the processing

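Without FGF against bFGF, 3 genes passed, and 6 did under normexp correction (CDH2, CDH11, ZEB2, EPCAM, VIM and ZEB1), 5 under quantile normalization and 5 without dim probes. Leaving out 1 experiment gave 2 to 4, and CDH2 and CDH11 passed in each. With the experiment as a replicate block 3 genes passed, the same ones, and 5750 of 42405 probes against 5400, and the block changed no call of a member in either 4-day comparison. Leaving out the pre-culture of experiment 2, an alternative added after the data had been seen, also left 3. Between 253G1 and H1, 0 passed, and 1 (VIM) did under normexp correction, without dim probes or with only the 2 systems in the fit. Between H1 in MEF-CM and in E8 Medium 5 passed, and 3 under normexp correction. Leaving out a culture gave 4 to 6 there, 3 to 6 between 201B7 and KhES-1 (6 without the FGFC culture of 201B7) and 0 between 253G1 and H1. CDH11, ZEB1 and ZEB2 passed between 201B7 and KhES-1, and VIM, CDH2 and CDH6 between the H1 media, in all alternatives. FGFC against bFGF had 0 members and 0 probes past the threshold in all alternatives, at 4 days and in the long term. The count of genes 2-fold apart without FGF against FGFC was 4 to 6, and 8 in the differentiated culture throughout. The count of all probes called was 5400 without FGF (1272 without experiment 3 to 9750 with the 2 arms alone), 12142 between the H1 media (3765 under normexp correction to 18973 with a floor), 5624 between 253G1 and H1 (1939 under normexp correction to 6902 under quantile normalization) and 15723 between 201B7 and KhES-1 (7631 under quantile normalization to 24954 with a floor). Of the tested values of single genes, 748 kept their side of the threshold, of which 39, none past it, turned sign, 21 newly passed, 23 were lost and 0 that had passed turned sign. CDH6, SNAI2, ZEB1 and ZEB2 near background limit what can be seen of them. Except where fewer cultures or probes entered a fit, the cause of these changes was not tested.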
